A study of Homo sapiens with 20 samples.

Results

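The comparison described here asked which genes differed in Raji cells 8 h after an active BET inhibitor, set against cells that had received its inactive mirror-image form for the same time. Its members were chosen by their titles: 2 arrays of Raji cells given 500 nM of the BET inhibitor for 8 h and 2 arrays of Raji cells given 500 nM of the inactive enantiomer for 8 h, so 4 of the 20 arrays of the series. Raji is an established Burkitt lymphoma line, a cancer of B lymphocytes in which a translocation places MYC beside an immunoglobulin locus. The cells were grown in RPMI medium with serum, and the labels do not name the compound. The other groups used below are Raji cells given the BET inhibitor or the inactive enantiomer for 4 h, untreated Raji cells at 0 h, and LP-1 multiple myeloma cells given either compound at 500 nM for 8 h, with 2 biological replicates each per the labels. Untreated LP-1 cells at 0 h and LP-1 cells given either compound at 500 nM for 4 h enter only the marker check and the spread estimated from all 20 arrays. Total RNA was amplified and hybridised to exon arrays.

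BET proteins carry paired bromodomains that bind acetylated lysines on histones. They help recruit the elongation factor P-TEFb, which releases paused RNA polymerase II, and genes next to strong enhancers are often the most sensitive when the bromodomains are blocked. In B cell cancers, MYC and genes of B cell identity are well-known examples. The enantiomer has the same atoms in mirror-image arrangement and is described by the submitters as inactive, so it serves as the control compound.

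The values are log2 expression levels of 22011 probe sets, so a difference of 1 is a 2-fold change, and levels of different probe sets are not set against each other. A probe set was called when limma's p, adjusted over all probe sets, was under 0.05. Array medians ran from 5.19 to 5.22 over the 4 arrays, and replicate arrays correlated at r = 0.980 with the BET inhibitor and r = 0.977 with the inactive enantiomer across probe sets, which are not independent. The label was checked against B cell markers: all 9 markers measured, among them CD79A, MS4A1 and PAX5, were higher on each of the 10 Raji arrays than on each of the 10 LP-1 arrays. Of 10 plasma cell markers, 8 were lower on each Raji array than on each LP-1 array, and 1 was higher. Precision is set by the small number of arrays. RNA came from whole cultures, so less RNA per cell and fewer cells carrying it cannot be told apart.

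After 8 h, 414 probe sets, or 1.88% of those tested, were called. With the BET inhibitor, 232 (1.05%) were lower and 182 (0.827%) were higher than with the inactive enantiomer. Calls within each gene list below stand beside these shares. Genes of B cell surface receptors and of signalling below the B cell receptor stood among the falls, together with MYC and several genes of amino acid supply. Rises included HEXIM1, SESN3, POLR2A, clustered histone genes and genes of lysosomes. The change was at least 2-fold for 147 of the 414, 86 lower and 61 higher. For each of the 414, both BET inhibitor arrays lay on 1 side of both inactive arrays, which was also true of 40.3% of all probe sets. The median difference over all probe sets was -0.001.

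**Figure D1:**
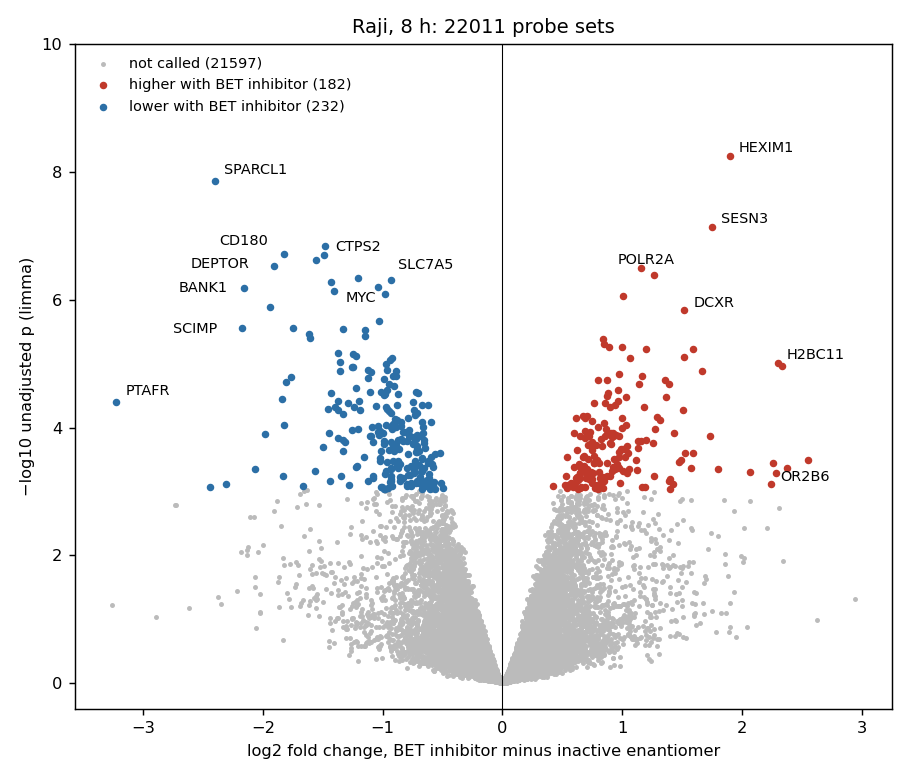
Log2 fold change (horizontal) against the −log10 of limma's unadjusted p (vertical) for 22011 probe sets in Raji cells at 8 h. The 232 probe sets called lower lie on the left in blue and the 182 called higher on the right in red, with HEXIM1 and SPARCL1 at the smallest p on each side.

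The number of calls depended on having 2 arrays in each group. The count was 108 or 100 when replicate 1 or 2 of the BET inhibitor group was left out, and 145 or 118 when replicate 1 or 2 of the inactive group was left out. A core of 48 probe sets, 31 lower and 17 higher, kept the call without each array in turn, 145 kept it in some of the 4 fits, and 221 lost it whichever array was left out. None of the 414 differences changed sign in these fits, and the largest shift of the log2 fold change in them had a median of 0.13. Among the 74 called genes that the naming rules for this comparison gave, 21 belonged to this core: HEXIM1, SESN3, POLR2A, DCXR, DHRS2, SLFN5 and H2BC11 among the rises and SPARCL1, DEPTOR, CD180, PRDM10, CTPS2, PRDM1, SLC7A5, BANK1, FKBP11, MYC, SCIMP, CYBB, TRIM55 and SLAMF7 among the falls. The other 53 lost the call without at least 1 array, 30 of them whichever array was left out, and their adjusted p in such fits is given with them.

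Genes that BET inhibitors are best known for came first. MYC, the growth-promoting transcription factor that the translocation drives in Burkitt lymphoma, read 6.99 and 7.23 on the BET inhibitor arrays, against 8.62 and 8.40 on the inactive arrays and 8.35 and 8.59 on the untreated arrays. Both treated levels lay more than 1 log2 unit below every other array at 8 h or 0 h, and the fall was 1.40 ± 0.16 (SE, n = 2 arrays per group), or 2.64-fold (adjusted p = 0.00101). HEXIM1, which holds P-TEFb in an inactive complex, read 8.23 and 8.33 with the BET inhibitor, against 6.36 and 6.40 with the inactive enantiomer, with no overlap and a spread of at most 0.1 within either group. Its rise of 1.90 ± 0.14 had the smallest adjusted p of the comparison (0.000125). POLR2A, the largest subunit of RNA polymerase II, read 9.49 and 9.75 with the BET inhibitor, against 8.36 and 8.35 with the inactive enantiomer, a rise of 1.27 ± 0.13 (adjusted p = 0.000894).

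Other genes of the BET system gave no call. BRD2 read 9.95 and 9.80 with the BET inhibitor, against 9.55 and 9.38 with the inactive enantiomer, a difference of 0.41 ± 0.11 that missed the threshold (adjusted p = 0.0996). BRD3 differed by -0.03 ± 0.15 (adjusted p = 0.968), with a 95% interval of -0.36 to 0.29. Of the 14 measured genes of BET proteins and P-TEFb, HEXIM1 alone was called, and the median of the list was 0.19, beside a median that rounds to 0 over the 14232 genes measured. The MYC network of 12 measured genes, which holds MYC's partners and rivals such as MAX and the MXD factors, had MYC as its 1 call and a median of 0.05. IRF4, a transcription factor of activated B and plasma cells, read 5.25 and 5.35 with the BET inhibitor, inside the 4.99 and 5.56 read with the inactive enantiomer. In a list of other genes known to respond to BET inhibitors, 3 of 20 were called. These were MYB, a transcription factor of blood progenitors (-1.04 ± 0.19, adjusted p = 0.0169), SAT1 and TXNIP. MYB kept the call only without inactive replicate 2, and its adjusted p without BET inhibitor replicate 2 was 0.131.

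Surface receptors of B cells were, with the ATF4 targets described further on, 1 of the 2 lists with the most calls. Of 29 measured, 6 were called lower and none higher, beside 1.05% of all probe sets called lower, and 24 of the 29 differences were below 0, with a median of -0.51. PTAFR, the receptor for platelet-activating factor, read 5.25 and 4.12 with the BET inhibitor, against 7.87 and 7.95 with the inactive enantiomer. The treated arrays differed by more than 1 log2 unit from each other, and the gap to the inactive arrays was still wider. The fall of 3.23 ± 0.52, or 9.36-fold, was the largest of any named gene (adjusted p = 0.00992). It kept the call only without BET inhibitor replicate 1, with an adjusted p up to 0.097 without another array. CD180, a Toll-like receptor homologue that modulates B cell activation, read 6.60 and 6.42 with the BET inhibitor, against 8.46 and 8.21 with the inactive enantiomer, with untreated cells at 8.40 and 8.42. Here replicates lay within 0.3 of each other, and the fall was 1.82 ± 0.18 (adjusted p = 0.000725).

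TNFRSF17, the receptor for the survival factor APRIL, was low throughout: 2.69 and 3.25 with the BET inhibitor, against 5.06 and 4.53 with the inactive enantiomer. Its fall was 1.82 ± 0.32 (adjusted p = 0.0154, 0.12 without BET inhibitor replicate 1 and 0.0971 without inactive replicate 1). A pair of SLAM family receptors, which bind like receptors on neighbouring lymphocytes, fell as well. SLAMF7 read 3.58 and 3.59 with the BET inhibitor, against 4.88 and 4.81 with the inactive enantiomer (-1.26 ± 0.18, adjusted p = 0.0053). SLAMF1 read 4.34 and 3.97 with the BET inhibitor, against 5.22 and 5.41 with the inactive enantiomer (-1.16 ± 0.23, adjusted p = 0.0265), and its adjusted p reached 0.206 when 1 array was left out. FCRL3, an Fc receptor-like inhibitory receptor, fell by 0.91 ± 0.14 (adjusted p = 0.00713, 0.0601 without BET inhibitor replicate 2 and 0.0556 without inactive replicate 1). The 23 receptors that did not pass ran as low as -1.63, so the size of the difference alone did not decide the call.

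Signalling below the B cell receptor gave 4 falls and no rise among 24 measured genes, beside 1.05% of all probe sets called lower, with a median of -0.40. BANK1, a B cell scaffold protein with ankyrin repeats, read 4.34 and 4.52 with the BET inhibitor, against 6.92 and 6.26 with the inactive enantiomer, a fall of 2.16 ± 0.24 (adjusted p = 0.000975). SCIMP, a transmembrane adaptor linked to antigen presentation, read 3.41 and 3.56 with the BET inhibitor, against 5.82 and 5.49 with the inactive enantiomer, a fall of 2.18 ± 0.27 (adjusted p = 0.00263). In both genes the treated replicates agreed within 0.2 and lay well below the inactive pair. BLNK, the linker that couples SYK to its downstream enzymes, read 7.74 and 8.04 with the BET inhibitor, against 8.86 and 8.78 with the inactive enantiomer (-0.93 ± 0.17, adjusted p = 0.0156). PTPN6, the phosphatase SHP-1 that dampens receptor signals, fell by 0.71 ± 0.12 (adjusted p = 0.0119). BLNK and PTPN6 kept the call only without BET inhibitor replicate 2, with adjusted p values of 0.12 and 0.0985 without BET inhibitor replicate 1.

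Large falls outside these lists included DOK3, TCL1A and CYBB. DOK3, an adaptor that restrains B cell receptor signalling, read 7.85 and 7.90 with the BET inhibitor, against 9.87 and 9.49 with the inactive enantiomer (-1.81 ± 0.27, adjusted p = 0.0067, 0.0526 without BET inhibitor replicate 1 and 0.0537 without inactive replicate 1). TCL1A, a co-activator of the kinase AKT in B cells, read 6.84 and 7.11 with the BET inhibitor, against 8.32 and 8.53 with the inactive enantiomer (-1.45 ± 0.24, adjusted p = 0.0107, 0.0899 without BET inhibitor replicate 1 and 0.0895 without inactive replicate 2). CYBB, the catalytic subunit of the phagocyte NADPH oxidase, read 7.87 and 8.32 with the BET inhibitor, against 9.70 and 9.71 with the inactive enantiomer (-1.61 ± 0.21, adjusted p = 0.00314).

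Of 21 measured transcription factors of the B lineage, 2 were called, both lower, beside 1.05% of all probe sets called lower, and the median was -0.23. PRDM1, the repressor Blimp-1 that turns B cells into plasma cells, read 5.18 and 5.02 with the BET inhibitor, against 6.71 and 6.36 with the inactive enantiomer (-1.43 ± 0.15, adjusted p = 0.000894). Untreated cells read 5.93 and 5.93, between both treated groups, so the distance from the untreated level was smaller than that from the inactive arrays. PAX5, which keeps B cell identity, read 7.36 and 7.38 with the BET inhibitor, against 8.14 and 8.20 with the inactive enantiomer (-0.80 ± 0.17, adjusted p = 0.0327, up to 0.174 when 1 array was left out). Untreated PAX5 levels of 8.67 and 8.46 lay above both groups.

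Germinal centre genes had the lowest median of the 27 lists, -0.55 over 11 genes, with 1 call. That was SERPINA9, a serpin of germinal centre B cells, which read 6.67 and 7.28 with the BET inhibitor, against 8.28 and 8.30 with the inactive enantiomer (-1.32 ± 0.25, adjusted p = 0.0193, up to 0.15 without an array other than BET inhibitor replicate 2). Among 9 genes of HLA class II and antigen presentation, CIITA, the master activator of class II genes, was the 1 call. It read 6.52 and 6.49 with the BET inhibitor, against 7.05 and 7.20 with the inactive enantiomer (-0.62 ± 0.10, adjusted p = 0.0103, up to 0.0904 without an array other than inactive replicate 1), while the median of the list was -0.11. Plasma cell markers had 4 calls among 10, all lower, beside 1.05% of all probe sets called lower. These were PRDM1, SLAMF7, TNFRSF17 and FKBP11, a folding enzyme of secretory cells (-1.04 ± 0.11, adjusted p = 0.000975). PRDM1, SLAMF7 and TNFRSF17 were already counted in the lists of transcription factors and surface receptors.

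**Figure D2:**
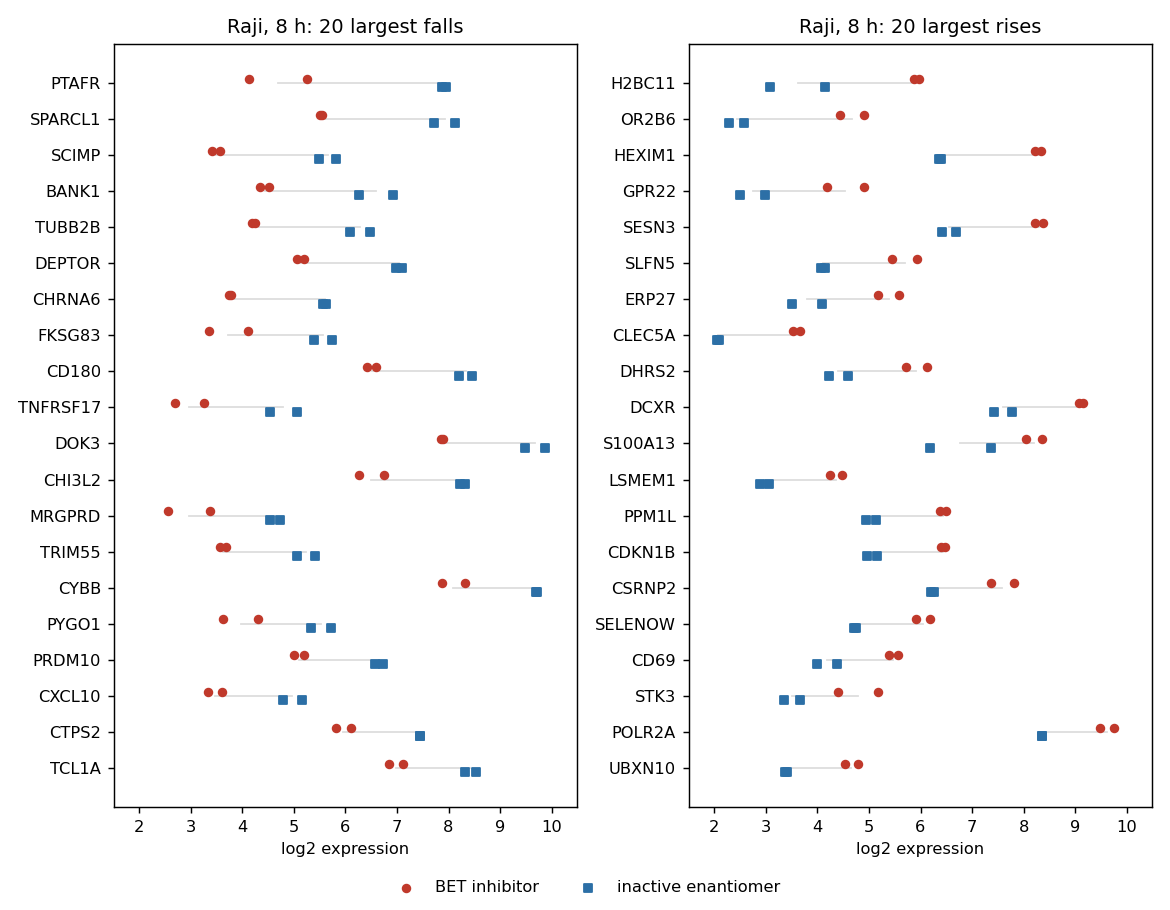
Log2 expression of the 20 largest called falls (left) and 20 largest called rises (right) on each array of Raji cells at 8 h, with circles for the 2 BET inhibitor arrays and squares for the 2 inactive arrays. The genes were picked among calls whose arrays do not overlap, and the widest gap is that of PTAFR.

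The largest falls also held genes with no B cell role in common. SPARCL1, a secreted matrix protein, read 5.50 and 5.55 with the BET inhibitor, against 8.13 and 7.72 with the inactive enantiomer, a fall of 2.40 ± 0.19 with the smallest adjusted p among the falls (0.000154). CTPS2, a CTP synthase, read 5.81 and 6.10 with the BET inhibitor, against 7.45 and 7.44 with the inactive enantiomer (-1.49 ± 0.15, adjusted p = 0.000725). PRDM10, a zinc finger regulator with a PR domain, read 5.0 and 5.19 with the BET inhibitor, against 6.58 and 6.72 with the inactive enantiomer (-1.56 ± 0.16, adjusted p = 0.000763). Replicates of these 3 genes lay within 0.5 of each other. A probe set assigned to PRDM10 and another gene together read 2.88 and 3.60 with the BET inhibitor, against 2.70 and 3.22 with the inactive enantiomer. It was not called (0.27 ± 0.44, limma adjusted p = 0.892). TRIM55, a RING finger protein best known from muscle, fell by 1.61 ± 0.21 (adjusted p = 0.0029), and CHI3L2, a secreted chitinase-like protein, by 1.76 ± 0.26 (adjusted p = 0.00615, 0.0653 without BET inhibitor replicate 2).

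Other large falls lay at low levels or changed with the arrays used. CHRNA6, an acetylcholine receptor subunit, read 3.77 and 3.74 with the BET inhibitor, against 5.63 and 5.57 with the inactive enantiomer, and fell by 1.84 ± 0.30 (adjusted p = 0.00953, up to 0.0672 when 1 array was left out). CXCL10, a chemokine that attracts T cells, read 3.34 and 3.60 with the BET inhibitor, against 4.78 and 5.16 with the inactive enantiomer (-1.50 ± 0.29, adjusted p = 0.0211, up to 0.164 when 1 array was left out). With IL10, an anti-inflammatory cytokine (-0.78 ± 0.17, adjusted p = 0.0376, up to 0.262 when 1 array was left out), CXCL10 made up the 2 calls among 21 NF-kB targets, whose median was -0.37. FKSG83, MRGPRD, a receptor of sensory neurons, and PYGO1, a co-activator of Wnt signalling, fell by 1.83, 1.67 and 1.56, and their adjusted p reached 0.228, 0.331 and 0.266 when 1 array was left out. TUBB2B, a beta tubulin gene, read 4.18 and 4.25 with the BET inhibitor, against 6.47 and 6.09 with the inactive enantiomer (-2.06 ± 0.44, adjusted p = 0.0331, up to 0.159). It has near-identical relatives, so its probes could have taken up RNA of another tubulin gene. A probe set that the annotation assigns to TUBB2B and another beta tubulin gene together was called in the opposite direction, with 5.40 and 5.36 with the BET inhibitor, against 4.38 and 4.05 with the inactive enantiomer (1.16 ± 0.22, adjusted p = 0.0188). The direction for TUBB2B thus depended on the probe set.

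Genes that the transcription factor ATF4 switches on under amino acid shortage gave 6 falls and no rise among 23 measured, beside 1.05% of all probe sets called lower, with a median of -0.39. SLC7A5, the large neutral amino acid transporter, read 7.53 and 7.66 with the BET inhibitor, against 8.52 and 8.52 with the inactive enantiomer (-0.93 ± 0.10, adjusted p = 0.000894). Its partner chain SLC3A2 read 6.91 and 7.05 with the BET inhibitor, against 7.62 and 7.65 with the inactive enantiomer (-0.66 ± 0.14, adjusted p = 0.0327). WARS1 and AARS1, which charge tRNA with tryptophan and alanine, fell by 0.89 ± 0.13 (adjusted p = 0.00554) and 0.75 ± 0.14 (adjusted p = 0.0195). The serine synthesis enzymes PSAT1 and PHGDH fell by 1.03 ± 0.21 (adjusted p = 0.029) and 0.58 ± 0.13 (adjusted p = 0.0462). SLC7A5 was the 1 gene of the 6 to keep its call without each array. WARS1 lost it without BET inhibitor replicate 1 (adjusted p = 0.0522), and AARS1, PSAT1, SLC3A2 and PHGDH lost it without any 1 array, with adjusted p up to 0.124, 0.168, 0.179 and 0.262.

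Promoter windows of AARS1 and of HERPUD1, a called gene of the unfolded protein response described next, are shown because both hold the letters of an element that ATF4 is known to bind with a C/EBP partner. The windows are RefSeq's on GRCh38.p14, from 250 bases before to 50 bases after the gene's start, on chr16:70289457-70289756 (minus strand) for AARS1 and chr16:56931892-56932191 (plus strand) for HERPUD1. Each is written 5′ to 3′ on the gene's own strand, and the capitals mark TGATGCAA or its reverse complement.
AARS1: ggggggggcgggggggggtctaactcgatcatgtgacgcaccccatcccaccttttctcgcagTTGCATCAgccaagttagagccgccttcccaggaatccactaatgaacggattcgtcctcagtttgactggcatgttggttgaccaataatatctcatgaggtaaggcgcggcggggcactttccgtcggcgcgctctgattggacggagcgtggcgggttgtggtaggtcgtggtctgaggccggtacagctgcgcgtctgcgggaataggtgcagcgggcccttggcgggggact
HERPUD1: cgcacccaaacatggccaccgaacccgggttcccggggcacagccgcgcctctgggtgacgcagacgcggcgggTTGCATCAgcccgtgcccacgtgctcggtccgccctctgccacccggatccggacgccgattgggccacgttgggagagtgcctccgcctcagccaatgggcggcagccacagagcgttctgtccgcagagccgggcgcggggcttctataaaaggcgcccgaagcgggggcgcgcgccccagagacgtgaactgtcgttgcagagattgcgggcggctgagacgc
Searched on both strands, TGATGCAA occurred in 3 of the 153 windows of genes called lower (1.96%), in 0 of the 115 windows of genes called higher, and in 80 of 11385 windows in all (0.703%). The third window belonged to MARS1, the methionine tRNA synthetase, named here after its value was seen. SLC7A5, SLC3A2, WARS1, PSAT1 and PHGDH were thus not among the 3 matches. A match is a description of the letters and does not show binding.

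HERPUD1, which helps degrade misfolded proteins of the endoplasmic reticulum, read 8.49 and 8.62 with the BET inhibitor, against 9.16 and 9.35 with the inactive enantiomer (-0.70 ± 0.13, adjusted p = 0.0173, up to 0.139 when 1 array was left out). SDF2L1, a chaperone partner in the same compartment, fell by 0.99 ± 0.15 (adjusted p = 0.00641, 0.0613 without BET inhibitor replicate 1 and 0.0533 without inactive replicate 2). ERP27, a non-catalytic member of the disulfide isomerase family, went the other way, with 5.59 and 5.18 with the BET inhibitor against 4.08 and 3.51 with the inactive enantiomer (1.59 ± 0.32, adjusted p = 0.024, up to 0.192 when 1 array was left out). These were the 3 calls among 20 genes of the unfolded protein response, whose median was -0.29 and of which 17 differences were below 0.

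Growth machinery outside the ATF4 list had few calls. Nucleotide synthesis genes had 2 falls among 20, CTPS2 and PFAS, an enzyme of purine synthesis (-0.67 ± 0.12, adjusted p = 0.0144, up to 0.134 without an array other than BET inhibitor replicate 1), and a median of -0.28. Ribosome biogenesis genes, many of which MYC is known to activate, had 1 fall among 29: PPRC1, a co-activator related to PGC-1, by 0.57 ± 0.13 (adjusted p = 0.0486, up to 0.226 when 1 array was left out). Yet 28 of the 29 differences were below 0, from -0.92 to 0.37 with a median of -0.38. Cytosolic ribosomal proteins had no call among 13, and their median was -0.07.

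Clustered histone genes were the list with the highest median of the 27, 0.28 over 44 genes, and 37 of the 44 differences were above 0. Only 2 were called, beside 0.827% of all probe sets called higher. On the inactive arrays at 8 h set against untreated cells the same list had a median of -0.25, with 36 of the 44 differences below 0 and none called. That comparison shares the inactive arrays with the rise. H2BC11, an H2B gene, read 5.97 and 5.87 with the BET inhibitor, against 4.15 and 3.08 with the inactive enantiomer. The inactive replicates differed by more than 1 log2 unit, and the rise was 2.30 ± 0.32, or 4.93-fold (adjusted p = 0.00497). H2AC11, an H2A gene, read 7.28 and 6.90 with the BET inhibitor, against 5.89 and 6.27 with the inactive enantiomer (1.01 ± 0.22, adjusted p = 0.0348, up to 0.214 when 1 array was left out). Histone genes of a class are near-identical in sequence, so probe sets could have shared RNA between copies.

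H2BC11 and H2AC11 are shown together because they are neighbours that read in opposite directions. Their RefSeq promoter windows on GRCh38.p14 share 253 bases, and the window of H2BC11, chr6:27132746-27133045 (minus strand), is written 5′ to 3′ below. Capitals mark the octamer ATTTGCAT of histone H2B promoters, the TATA motif TATAAA and the CCAAT box, each searched on both strands.
H2BC11: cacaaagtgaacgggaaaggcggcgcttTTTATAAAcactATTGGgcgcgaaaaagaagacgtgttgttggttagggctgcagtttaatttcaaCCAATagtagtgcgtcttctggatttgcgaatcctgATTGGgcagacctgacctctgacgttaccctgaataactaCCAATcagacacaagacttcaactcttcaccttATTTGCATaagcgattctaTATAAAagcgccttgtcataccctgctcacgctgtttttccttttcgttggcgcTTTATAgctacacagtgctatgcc
The window holds 1 octamer, 4 TATAAA matches, 2 of them overlapping on opposite strands, and 4 CCAAT matches. Its octamer lies in the bases shared with the window of H2AC11, so both windows hold the same site. Over the 115 windows of genes called higher, the octamer occurred in 3.48%, TATAAA in 10.4% and CCAAT in 40.0%, against 1.57%, 8.6% and 36.5% of all 11385 windows. Of the 153 windows of genes called lower, 2 held the octamer, 23 held TATAAA and 48 held CCAAT. These shares were not tested against each other.

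Among antiproliferative genes, 3 of 16 were called, all higher, beside 0.827% of all probe sets called higher, and the median was 0.19. CDKN1B, the cell cycle inhibitor p27, read 6.39 and 6.47 with the BET inhibitor, against 4.96 and 5.16 with the inactive enantiomer, a rise of 1.37 ± 0.22 (adjusted p = 0.00895, up to 0.0708 without an array other than inactive replicate 2). Untreated cells read 5.60 and 5.71, between the groups. TXNIP, which binds thioredoxin and limits glucose uptake, read 9.80 and 9.91 with the BET inhibitor, against 8.82 and 8.84 with the inactive enantiomer (1.03 ± 0.16, adjusted p = 0.00895, up to 0.078 without an array other than BET inhibitor replicate 1). TOB1, an antiproliferative protein that speeds mRNA decay, rose by 0.75 ± 0.14 (adjusted p = 0.0191, up to 0.128 when 1 array was left out).

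Inhibitors of the growth kinase mTORC1 moved in both directions. SESN3, a sestrin that restrains mTORC1 when amino acids are scarce, read 8.23 and 8.37 with the BET inhibitor, against 6.69 and 6.41 with the inactive enantiomer, a rise of 1.75 ± 0.16 (adjusted p = 0.000528). DEPTOR, an inhibitory subunit of the mTOR complexes, read 5.19 and 5.06 with the BET inhibitor, against 7.09 and 6.98 with the inactive enantiomer, a fall of 1.91 ± 0.19 (adjusted p = 0.000789). EIF4EBP2, which blocks cap-dependent translation until mTORC1 phosphorylates it, rose by 0.64 ± 0.13 (adjusted p = 0.0307, up to 0.188 when 1 array was left out). These were the 3 calls among 16 measured genes, and the median of the list rounded to 0.

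Lysosome and autophagy genes gave 4 rises and no fall among 19, beside 0.827% of all probe sets called higher, with a median of 0.19. NPC1, the lysosomal cholesterol exporter, read 6.53 and 6.68 with the BET inhibitor, against 5.69 and 5.77 with the inactive enantiomer (0.87 ± 0.16, adjusted p = 0.0173). A probe set assigned to NPC1 and another gene together differed by 0.26 ± 0.14 and was not called (limma adjusted p = 0.475). MAP1LC3B, the autophagosome protein LC3B, read 9.14 and 9.21 with the BET inhibitor, against 8.09 and 8.44 with the inactive enantiomer (0.91 ± 0.17, adjusted p = 0.0198). The hydrolases NEU1, a sialidase, and GLA, an alpha-galactosidase, rose by 0.95 ± 0.20 (adjusted p = 0.0307) and 0.67 ± 0.14 (adjusted p = 0.0265). NPC1, NEU1 and GLA lost the call without any 1 array (adjusted p up to 0.137, 0.22 and 0.192), and MAP1LC3B kept it only without inactive replicate 2 (up to 0.138).

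Single rises came from other lists. SAT1, which acetylates polyamines for export, read 9.02 and 9.03 with the BET inhibitor, against 7.93 and 7.78 with the inactive enantiomer (1.17 ± 0.17, adjusted p = 0.00605, 0.056 without inactive replicate 2). It was the 1 call among 11 genes of polyamine metabolism. INSIG1, which retains the sterol sensor in the endoplasmic reticulum, rose by 0.94 ± 0.17 (adjusted p = 0.0173, up to 0.103 when 1 array was left out), the 1 call among 17 sterol genes. DDB2, a p53 target that recognises ultraviolet damage in DNA, rose by 0.75 ± 0.13 (adjusted p = 0.0141, up to 0.0899), the 1 call among 21 p53 targets. SLFN5, a Schlafen family gene, rose by 1.59 ± 0.21 (adjusted p = 0.00389) and was the 1 call among 31 interferon-stimulated genes, whose median was -0.05.

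Several of the largest rises belonged to no list. DCXR, a reductase of dicarbonyls and xylulose, read 9.15 and 9.07 with the BET inhibitor, against 7.42 and 7.77 with the inactive enantiomer (1.52 ± 0.18, adjusted p = 0.00162). DHRS2, a short-chain dehydrogenase, read 6.13 and 5.71 with the BET inhibitor, against 4.22 and 4.59 with the inactive enantiomer (1.52 ± 0.21, adjusted p = 0.00451). CSRNP2, a nuclear protein rich in cysteine and serine, rose by 1.36 ± 0.20 (adjusted p = 0.00641, 0.0668 without BET inhibitor replicate 2). The phosphatase PPM1L rose by 1.39 ± 0.21 (adjusted p = 0.0069, 0.0593 without BET inhibitor replicate 1 and 0.0634 without inactive replicate 2), and the activation marker CD69 by 1.29 ± 0.22 (adjusted p = 0.013, up to 0.11 without an array other than inactive replicate 1). STK3, the Hippo kinase MST2, read 4.39 and 5.18 with the BET inhibitor, against 3.66 and 3.36 with the inactive enantiomer (1.28 ± 0.23, adjusted p = 0.0162, 0.124 without BET inhibitor replicate 2 and 0.125 without inactive replicate 2).

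Another 7 of the 20 largest rises lost the call in most or all of the fits without 1 array. OR2B6, an olfactory receptor gene, read 4.44 and 4.91 with the BET inhibitor, against 2.28 and 2.58 with the inactive enantiomer (2.24 ± 0.51, adjusted p = 0.0452). GPR22, an orphan receptor, read 4.18 and 4.90 with the BET inhibitor, against 2.99 and 2.49 with the inactive enantiomer, and was called (1.80 ± 0.38, adjusted p = 0.033). Untreated cells read 3.96 and 5.05 for GPR22, so the BET inhibitor arrays lay within the untreated range and the inactive arrays below it. The same held for no other gene of the 20 largest rises. CLEC5A, a lectin receptor of myeloid cells, LSMEM1, a membrane protein, UBXN10, a protein of cilia, and SELENOW, a selenoprotein, rose by 1.52, 1.39, 1.26 and 1.32. OR2B6, GPR22, CLEC5A, LSMEM1, UBXN10 and SELENOW all lost the call without any 1 array, with adjusted p up to 0.264 for OR2B6, 0.254 for GPR22, 0.137 for CLEC5A, 0.197 for LSMEM1, 0.194 for UBXN10 and 0.119 for SELENOW. S100A13, a calcium-binding protein, rose by 1.42 ± 0.32 (adjusted p = 0.0448), and without inactive replicate 2 its difference was 0.83 (adjusted p = 0.274).

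**Figure D3:**
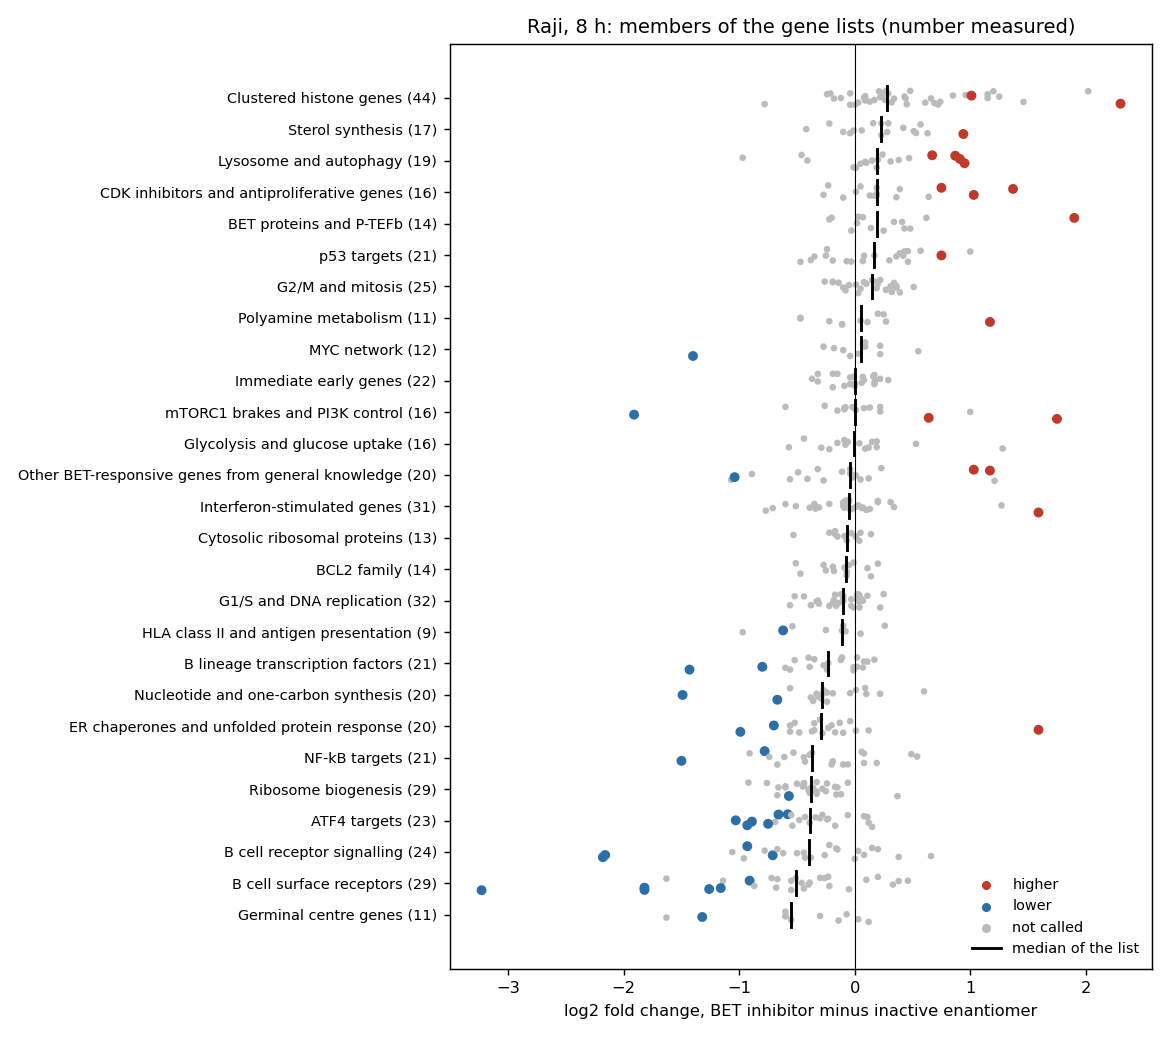
Log2 fold change in Raji cells at 8 h for each measured member of 27 gene lists, with called members in red (higher) or blue (lower), other members in grey and the median of each list as a black bar. Medians run from -0.55 for germinal centre genes to 0.28 for clustered histone genes.

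Lists of the cell cycle and of the BCL2 family held no call at 8 h. By limma, none of 32 genes of G1/S and DNA replication passed, and 7 had an unadjusted p under 0.05. The smallest p values there were those of MCM5, a subunit of the replicative helicase (-0.52 ± 0.16, adjusted p = 0.158), and of the cyclin-dependent kinase CDK6 (-0.56 ± 0.19, adjusted p = 0.203). None of 25 genes of G2/M passed, and 3 had an unadjusted p under 0.05, with the mitotic kinase NEK2 at 0.39 ± 0.13 and the phosphatase CDC25B at 0.36 ± 0.12. Among 14 BCL2 family genes none passed and 2 had an unadjusted p under 0.05, the death effectors BAX (-0.47 ± 0.15, adjusted p = 0.146) and BAD (-0.51 ± 0.20, adjusted p = 0.259).

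Neither immediate early genes (22 measured, 0 with an unadjusted p under 0.05) nor ribosomal proteins (13 measured, 0 such) held a call by limma. Glycolysis genes had none among 16, with 4 unadjusted. Their named members were PFKM, a phosphofructokinase subunit (-0.57 ± 0.16, adjusted p = 0.118), and TPI1, the triose phosphate isomerase, which read 5.17 and 4.23 with the BET inhibitor, against 3.93 and 2.91 with the inactive enantiomer (adjusted p = 0.141). Markers of other cell types were also tested. No marker of T and NK cells (13 measured), myeloid cells (7), epithelial cells and fibroblasts (11) or erythroid cells (3) was called by limma, and 1, 0, 1 and 0 of them had an unadjusted p under 0.05. The B cell markers had 1 call among 9, PAX5, and a median of -0.56.

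The response was then set against that of the same line after 4 h, which rests on its own BET inhibitor and inactive arrays. At 8 h, 182 of the 414 calls, or 44.0%, were higher, while at 4 h 391 probe sets were called (1.78%), of which 316 were higher and 75 lower. The share at 8 h was 53.1% without inactive replicate 1 and 24.6% without inactive replicate 2. Both lists shared 151 probe sets, all with the same sign, or 36.5% of the 8 h list and 38.6% of the 4 h list. Of the 232 falls at 8 h, 52 were also called at 4 h, and of the 182 rises, 99 were. Over the falls the median difference was -0.93 at 8 h and -0.47 at 4 h, and over the rises it was 0.88 at 8 h and 0.75 at 4 h. The falls and rises were chosen on the 8 h values, so a larger value at 8 h is partly fixed by that choice.

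**Figure D4:**
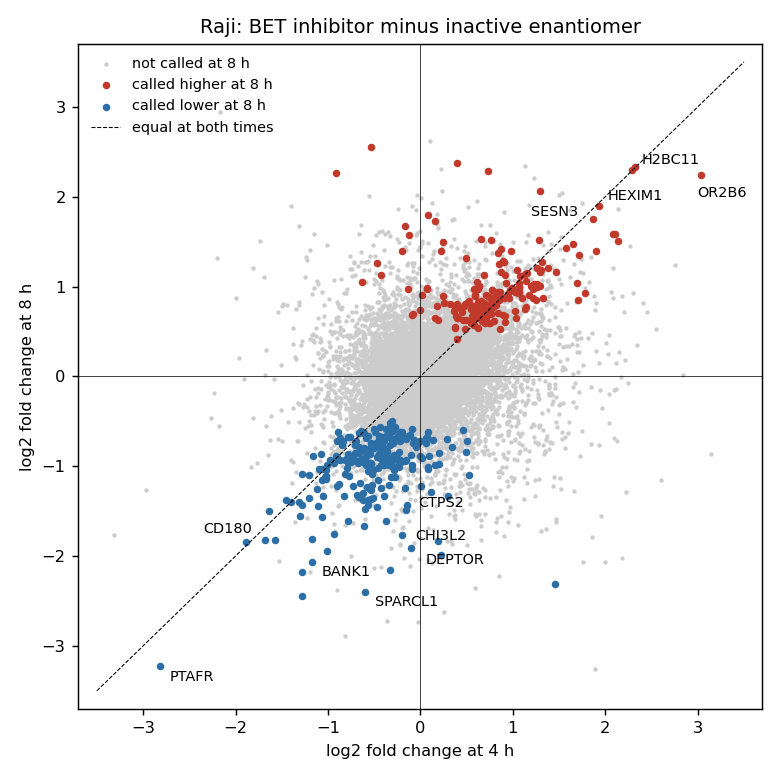
Log2 fold change of BET inhibitor over inactive enantiomer in Raji cells at 8 h (vertical) against 4 h (horizontal) for 22011 probe sets, with the 8 h calls coloured and a dashed line where both are equal. HEXIM1, H2BC11 and CD180 lie near the line, while SPARCL1, BANK1, DEPTOR and CTPS2 lie far below it.

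When the difference between the times was tested itself, no probe set passed by limma, while 1257 had an unadjusted p under 0.05 and the smallest adjusted p was 0.0947. Several genes had nearly equal differences at both times. HEXIM1 differed by 1.90 at 8 h and 1.93 at 4 h, MYC by -1.40 at both, SESN3 by 1.75 at 8 h and 1.86 at 4 h, and POLR2A by 1.27 at 8 h and 1.31 at 4 h. H2BC11 gave 2.30 at 8 h and 2.29 at 4 h, and CD180 gave -1.82 at 8 h and -1.69 at 4 h. Intervals of these differences between times were still wide: -0.46 to 0.39 for HEXIM1 and -0.47 to 0.48 for MYC.

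A further set was called at 8 h and had small differences at 4 h. BANK1 read 6.19 and 6.55 with the BET inhibitor, against 6.77 and 6.64 with the inactive enantiomer at 4 h, a difference of -0.33 (adjusted p = 0.6) beside the -2.16 at 8 h. DEPTOR read 6.44 and 6.56 with the BET inhibitor at 4 h, inside the 6.27 and 6.93 of the inactive arrays, and differed by -0.10 there. SPARCL1 differed by -0.59 at 4 h (adjusted p = 0.148), CTPS2 by -0.16 and CHI3L2 by -0.19. Untreated levels of DEPTOR (7.34 and 7.41) and CTPS2 (7.41 and 7.35) lay above both groups at 4 h. Those of BANK1, SPARCL1 and CHI3L2 overlapped the inactive arrays there. The inactive arrays at 4 h were not tested against untreated cells. For SPARCL1, DEPTOR and CTPS2 the difference between the times was -1.80, -1.81 and -1.33 (adjusted p = 0.106 each), short of the threshold. After quantile normalization of the deposited values, SPARCL1 (-1.65), DEPTOR (-1.64), SOX5, TXK and 1 probe set without a name passed, and without inactive replicate 2 of the 4 h group DEPTOR passed at -2.15 with GPR19 (4.02).

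ATF4 targets, with 6 falls among 23 and a median of -0.39 at 8 h, had 0 calls at 4 h by limma, where 1 had an unadjusted p under 0.05 and the median was -0.04. SLC7A5 read 7.97 and 8.00 with the BET inhibitor, against 8.10 and 8.18 with the inactive enantiomer at 4 h (-0.15, adjusted p = 0.553). Untreated SLC7A5 levels of 8.60 and 8.53 lay above both groups at 4 h, as did those of AARS1, WARS1 and PHGDH. For PSAT1 and SLC3A2 the untreated arrays overlapped the inactive arrays at 4 h. For WARS1 the difference was -0.89 at 8 h and 0.09 at 4 h. HERPUD1 fell at 8 h and differed by 0.28 at 4 h (adjusted p = 0.349), with 9.36 and 9.52 on the BET inhibitor arrays against 9.17 and 9.14 on the inactive arrays. The adjusted p of the difference between times was 0.177 for SLC7A5, WARS1, HERPUD1 and SDF2L1 alike, so no time dependence was called for them. B cell surface receptors had 7 falls at 4 h (0.341% of all probe sets were called lower there) and a median of -0.33, and lysosome genes had 3 rises (1.44% of all probe sets were called higher there). Histone genes had 2 rises and a median of 0.37 at 4 h.

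**Figure D5:**
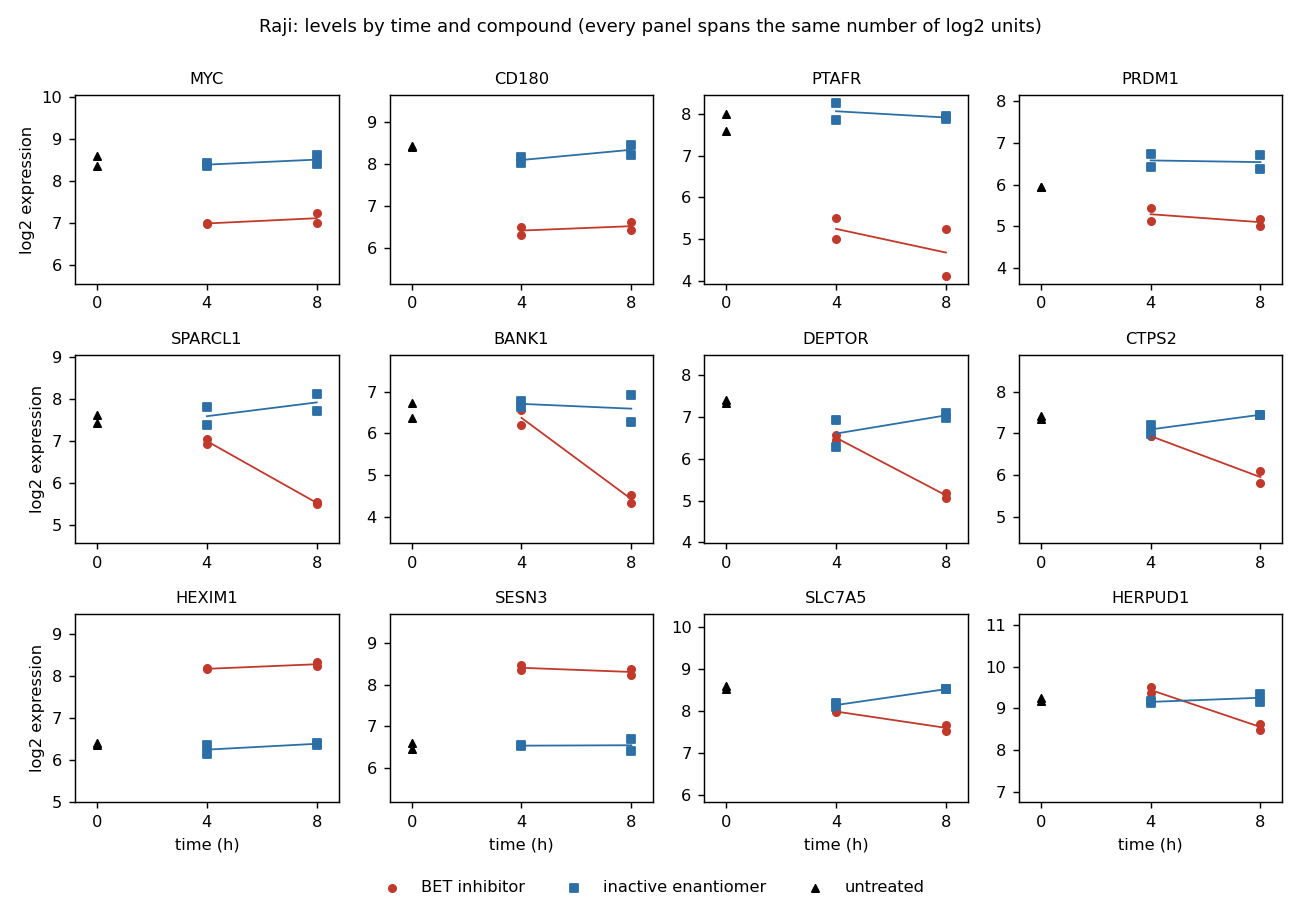
Log2 expression of 12 genes in Raji cells by time in hours, with circles for the BET inhibitor, squares for the inactive enantiomer, triangles for untreated cells and lines through group means. MYC, CD180, PTAFR, PRDM1, HEXIM1 and SESN3 are already apart at 4 h, while the groups of SPARCL1, BANK1, DEPTOR, CTPS2, SLC7A5 and HERPUD1 lie closer at 4 h than at 8 h.

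The inactive enantiomer itself was compared with untreated cells, a comparison in which compound and time in culture cannot be told apart. No probe set was called by limma, with 994 at an unadjusted p under 0.05 and a smallest adjusted p of 0.162. The 232 falls had a median of 0.04 and the 182 rises a median of -0.05 in this comparison, against 0 over all probe sets. Both comparisons share the inactive arrays at 8 h, so these medians are not independent of the response. TRIM55, PRDM1 and TUBB2B stood 0.85, 0.60 and 0.65 above the untreated level on the inactive arrays. GPR22 stood 1.77 below it, and CLEC5A, SELENOW and CDKN1B 0.69, 0.65 and 0.59 below it. TRIM55 read 4.45 and 4.32 on the untreated arrays, between 5.41 and 5.06 with the inactive enantiomer and 3.68 and 3.56 with the BET inhibitor at 8 h.

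LP-1 cells at 8 h had 1262 calls (5.73%), 828 higher (3.76%) and 434 lower (1.97%), and shared 176 of the 414 Raji calls with the same sign, which is 42.5% of the Raji list and 13.9% of the LP-1 list. A further 4 were called with opposite signs. When the difference between the lines was tested, 54 probe sets passed (0.245%), 34 with a lower response in Raji (0.154%) and 20 with a higher one (0.0909%). Leaving out 1 of the 8 arrays compared gave between 17, without Raji BET inhibitor replicate 2, and 131, without LP-1 BET inhibitor replicate 2. SPARCL1, FGD6, CEMIP2, ATP1B1 and SELPLG were the 5 of 16 named genes to keep this call without each array in turn.

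In part of these genes the difference came with a fall in Raji. SPARCL1 fell in Raji and read 4.18 and 4.09 with the BET inhibitor, against 4.37 and 4.00 with the inactive enantiomer in LP-1, so the response differed by -2.34 ± 0.27 (adjusted p = 0.0054). PRDM1 fell in Raji and differed by 0.36 in LP-1, where it read 10.37 and 10.26 with the BET inhibitor, against 9.91 and 9.99 with the inactive enantiomer (line difference -1.79 ± 0.22, adjusted p = 0.0054). CTPS2 (-1.72 ± 0.21, adjusted p = 0.0054), CYBB (-1.88 ± 0.29, adjusted p = 0.0242), TCL1A (-1.94 ± 0.34, adjusted p = 0.0435) and BANK1 (-1.88 ± 0.33, adjusted p = 0.0435) followed the same pattern. On the LP-1 arrays at 8 h, CTPS2, CYBB, TCL1A and BANK1 read at most 3.97, 5.10, 4.82 and 3.30, below each of their Raji levels at that time. For BANK1 this lay below the lower quartile of each of these LP-1 arrays (3.78 to 3.89). Whether a fall in LP-1 could have shown at such levels was not tested. CYBB and TCL1A lost the line difference in most of the fits without 1 array. Such fits are not given for PRDM1, CTPS2 and BANK1.

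In other genes the called change was in LP-1. FGD6, an exchange factor for CDC42, read 7.69 and 7.90 with the BET inhibitor, against 7.75 and 7.65 with the inactive enantiomer in Raji, while in LP-1 it rose by 2.82 (adjusted p = 8.86e-05). CEMIP2, a cell surface hyaluronidase, differed by 0.51 in Raji (adjusted p = 0.27) and rose by 2.97 in LP-1. CCR1, a chemokine receptor, fell by 3.74 in LP-1 and differed by -0.49 in Raji, where it read 1.83 and 2.70 with the BET inhibitor, against 3.39 and 2.12 with the inactive enantiomer. GPRC5D, an orphan receptor of plasma cells, rose in Raji by 1.06 ± 0.22 (adjusted p = 0.033, 0.093 to 0.228 when 1 array was left out) and fell by 0.95 in LP-1 (adjusted p = 0.0268), which made it 1 of the 4 probe sets with opposite calls. Its line difference of 2.01 was lost when 1 array was left out (adjusted p up to 0.11). At 8 h in Raji, GPRC5D read 4.72 and 4.99 with the BET inhibitor, against 3.82 and 3.79 with the inactive enantiomer. Untreated Raji cells read 4.32 and 4.41, between both groups. After 4 h its difference in Raji was -0.63 and was not called (limma adjusted p = 0.205). Lists also differed in their counts: ribosome biogenesis genes had 1 fall among 29 in Raji and 18 in LP-1, and histone genes 2 rises among 44 in Raji and 12 in LP-1. These counts were not tested against each other.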

How the data were processed

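Per the labels, total RNA from 2 biological replicates per group was amplified with a whole-transcript kit and hybridised to exon arrays. The authors deposited 1 log2 level per transcript-level probe set and array, made with RMA in Affymetrix Expression Console on hg19, per the submitters' processing notes, which give no versions. Nothing else was done to them here.

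limma 3.58.1 (R 4.3.3) fitted a linear model to all 20 arrays, with 1 mean for each of the 10 groups (10 residual degrees of freedom, prior degrees of freedom 2.59), without a filter or block. Contrasts were tested two-sided and adjusted by Benjamini-Hochberg over 22011 probe sets, so each spread is pooled over both cell lines, and p-values measure the spread between replicates as labelled. Errors are standard errors, and intervals cover 95%. No depth exists for arrays. The fit was tested on simulated data with known answers.

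Of the probe sets, 14432 had 1 symbol in the platform's table (14404 matched RefSeq by Entrez identifier), 2408 had several and 5171 had none. Those without 1 symbol were counted, not named, except where given beside TUBB2B, PRDM10 and NPC1. A gene is represented by the probe set with the highest mean, which gave 14232 genes.

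The members, the 27 gene lists and the 6 marker lists were chosen with earlier results of these data known. Genes were named by rule: MYC, HEXIM1, BRD2, BRD3 and IRF4; the 20 largest called falls and rises with non-overlapping arrays; up to 8 called members of each list, or 2 where none was called; the 8 largest each way for differences between times and lines; and the 6 largest each way for inactive enantiomer minus untreated. Another gene fixed in this rule is not reported here. Other settings were a filter, quantile normalization, centring, another moderation of variances, fewer arrays, a replicate block and leaving out each array.

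The replicate numbers did not pair the arrays: differences between replicates correlated between group pairs at r = -0.16 to 0.05 in Raji.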

Additional observations from a re-analysis of the deposited data

Results flagged for a closer look

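The response to the BET inhibitor at 8 h differed between the lines, by limma's test of the difference itself, for 54 probe sets. On the log2 scale, as response in Raji minus response in LP-1, the 8 largest negative differences among the genes called in this test were those of FGD6 (-2.72), CEMIP2 (-2.46), SPARCL1 (-2.34), ATP1B1, a sodium pump subunit (-2.32), TUFT1, or tuftelin (-2.28), PAG1, an adaptor that anchors the kinase CSK (-2.16), TCL1A (-1.94) and CYBB (-1.88). SPARCL1, TCL1A and CYBB fell in Raji, while FGD6, CEMIP2, ATP1B1, TUFT1 and PAG1 rose in LP-1 and were not called in Raji at 8 h. ATP1B1 differed by 0.85 in Raji at 8 h (limma adjusted p = 0.0727) and was called higher there at 4 h (1.32, adjusted p = 0.0112). The 8 largest positive differences among the genes called were those of CCR1 (3.25), PECAM1, an adhesion molecule (2.32), SELPLG, a selectin ligand (2.19), GPRC5D (2.01), EDNRB, an endothelin receptor (1.93), MLKL, the effector of necroptosis (1.81), IL12A, a subunit of interleukin 12 (1.74), and PDCD2L (1.48). All 8 fell in LP-1, and GPRC5D was the 1 of them called in Raji, where it rose. On the Raji arrays at 8 h, CCR1, EDNRB and MLKL read at most 3.39, 3.19 and 3.18, below the lower quartile of each array (3.74 to 3.77). Whether a fall in Raji could have shown at these levels was not tested. PECAM1 read at most 4.03 on these arrays, while PDCD2L read 7.20 to 7.44.

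Of these 16 genes, SPARCL1, FGD6, CEMIP2, ATP1B1 and SELPLG kept the call without each of the 8 arrays compared, with a highest adjusted p of 0.0462. TUFT1 lost it without 1 array (adjusted p = 0.0557), and EDNRB, PECAM1, PDCD2L and TCL1A kept it in 1 of 8 such fits. Why the lines differed was not tested.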

How the results depend on the processing

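With 2 arrays a group, the number of calls depended on how the spread was estimated. The 414 calls at 8 h became 90 with the 10 Raji arrays alone and 0 with the 4 arrays compared alone, where limma left 2293 at an unadjusted p under 0.05, and were 147 with a 2-fold minimum. Leaving out 1 array gave 100 to 145 for this comparison, 0 to 2 for the difference between times, 17 to 131 for the difference between lines and 0 to 1 for inactive enantiomer minus untreated. The lone array is then assumed to vary like the other groups. With the replicate number as a block, 378 were called, 324 of them shared with the 414, and the line difference had 34 calls. The numbers share no source in the labels. Quantile normalization gave 5 calls for the difference between times, and 600 at 8 h (270 higher, 330 lower). The other settings gave 420 to 542 at 8 h. No named difference changed sign under a setting other than a left-out array. Without 1 array, BRD3 gave -0.15 to 0.08, IRF4 -0.27 to 0.30 and DUSP5, an immediate early phosphatase, -0.76 to 0.02, beside -0.03, 0.02 and -0.37 with all arrays, none of them called.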

Other observations

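Further calls at 8 h in Raji were looked up by gene function after their values were seen, so they are given as values with no test of a group. Amino acid transporters outside the ATF4 list were called lower with the BET inhibitor than with the inactive enantiomer: SLC38A5 differed by -1.21 ± 0.13 (adjusted p = 0.000894), SLC6A9, a glycine transporter, by -0.92 ± 0.14 (adjusted p = 0.00605), SLC38A1, a glutamine transporter, by -0.78 ± 0.14 (adjusted p = 0.0173) and SLC43A1 by -0.74 ± 0.14 (adjusted p = 0.0173). SLC38A5 read 5.60 and 5.59 with the BET inhibitor, against 6.85 and 6.75 with the inactive enantiomer. MARS1, the methionine tRNA synthetase, differed by -0.75 ± 0.12 (adjusted p = 0.00992) at 8 h and -0.04 at 4 h. TARS3, a threonine tRNA synthetase, went the other way and was called higher (1.14, adjusted p = 0.00694, with differences of 1.03 to 1.25 when 1 array was left out). CBS, which condenses homocysteine with serine, differed by -0.67 ± 0.15 (adjusted p = 0.0424).

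More immune receptors were called lower than the lists held. TLR10, an orphan Toll-like receptor of B cells, read 7.34 and 7.36 with the BET inhibitor, against 8.88 and 8.57 with the inactive enantiomer (-1.37 ± 0.19, adjusted p = 0.00435), and TLR1, a co-receptor for bacterial lipopeptides, differed by -1.11 ± 0.17 (adjusted p = 0.00833). The SLAM family members CD84 and CD48 differed by -1.29 ± 0.21 (adjusted p = 0.00992) and -1.03 ± 0.19 (adjusted p = 0.0169), the integrin chain ITGAL by -1.33 ± 0.17 (adjusted p = 0.00267), and CD80, a ligand that costimulates T cells, by -0.93 ± 0.21 (adjusted p = 0.041). Among genes of transcription by RNA polymerase II, CTR9, a subunit of the PAF1 elongation complex, was higher by 0.85 ± 0.15 (adjusted p = 0.0148), SUPT4H1, a subunit of the elongation factor DSIF, by 0.63 ± 0.15 (adjusted p = 0.0486) and MED19, a Mediator subunit, by 0.80 ± 0.19 (adjusted p = 0.049). Such genes did not all rise: INTS3, an Integrator subunit, was called lower (-0.99, adjusted p = 0.00839, with differences of -1.05 to -0.93 when 1 array was left out).

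TARS3 and INTS3 did not keep the call in every fit without 1 array. Of the 15 other genes given here, SLC38A5, TLR10 and ITGAL kept the call without each array in turn. SLC6A9, TLR1 and MARS1 kept it in 2 of the 4 fits, with adjusted p up to 0.0538, 0.0746 and 0.085, and CD84, CTR9 and MED19 in 1 of 4, up to 0.0897, 0.134 and 0.32. SLC38A1, SLC43A1, CD48, CD80, SUPT4H1 and CBS lost it whichever array was left out, with adjusted p between 0.0535 for SLC38A1 and 0.242 for SUPT4H1.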
